A study of Mus musculus with 4 samples.

Results

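The 10 genes described here belong to the unfolded protein response of the endoplasmic reticulum (ER) and were taken by symbol: Hspa5, Hsp90b1, Calr, Pdia4, Sdf2l1, Dnajb9, Herpud1, Xbp1, Atf6 and Ern1. All 10 were found, each once, among the 55487 Ensembl mouse gene IDs of the expression table. The table gives TPM (transcripts per 1000000), a level per transcript length, for cultured neural stem cells of embryonic mouse neocortex in 4 libraries, 1 per group. The control was a culture of genotype Tut1f/f, whose Tut1 gene is flanked by loxP sites, that received empty lipid nanoparticles (LNP). The Tut1 KO was a Tut1f/f culture given LNP with mRNA for Cre recombinase, which removes the DNA between loxP sites. The Trp53 KO was a p53f/f culture and the double KO a Tut1f/f;p53f/f culture, both given the same Cre-LNP, and the treatment lasted 3 days. The study asked what loss of TUT1, which puts a tail of uridines on the spliceosomal U6 snRNA, does to stem cells, and whether p53, the product of Trp53, takes part.

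When unfolded proteins build up in the ER, their lumen-facing sensors are released from the chaperone BiP, the product of Hspa5. The sensor ATF6 is cut to free a transcription factor, IRE1 (the product of Ern1) splices Xbp1 mRNA so that it encodes an active transcription factor, and PERK (Eif2ak3) slows translation and favours ATF4. ATF6 and XBP1 raise chaperones, disulfide isomerases and proteins that return misfolded chains to the cytosol for degradation. Neural precursors secrete and display many glycoproteins, and all cells keep a basal supply of these proteins. The Xbp1 values below are for the whole gene and do not separate its spliced from its unspliced form.

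Directions drawn from the Tut1 labels rest on those labels. Tut1 had 12.2 TPM in the control, 29.8 TPM in the library labelled Tut1 KO, 12.5 TPM in Trp53 KO cells and 13.7 TPM in that of the double KO. Cre removes only part of the gene, so a gene-level TPM need not fall, and the deleted part cannot be read from these values. The cause of the higher value in the library labelled Tut1 KO, not seen in the double KO, was not tested. Trp53 had 119.9 TPM in control cells and 100.4 TPM in Tut1 KO cells, against 39.7 and 41.9 TPM where it was deleted alone or with Tut1. The X-inactivation transcript Xist had 188 TPM in Tut1 KO cells, 204 TPM in Trp53 KO cells and 0.01 TPM in the others, while the Y-linked Ddx3y had 24.4 TPM in control cells, 25.7 TPM in double KO cells and 0 TPM elsewhere. Sex thus differed between the libraries of every contrast below other than double KO minus control, and in those contrasts it cannot be told apart from the deletion. Each label, Tut1 or Trp53, held 1 library of each kind. Culture and, against the control, Cre treatment cannot be told apart from the deletions either. All 8 neural stem cell markers checked (Sox2, Nes and others) were at 1 TPM or more in every library, with sums of 10535 to 12396 TPM. None of 4 microglial and none of 4 endothelial and blood markers reached 1 TPM anywhere. The 5 neuronal markers were all at 1 TPM or more, with a sum of 238 TPM in control cells, 164 TPM in Tut1 KO cells, 211 TPM in Trp53 KO cells and 217 TPM in double KO cells. Most of each sum was Map2, with 208, 141, 181 and 191 TPM in that order. Of the 5 markers 4 were lower in the Tut1 KO than in the control, and Dcx was higher. Astrocyte markers (2 of 4 at 1 TPM or more in each library) summed to between 82.2 and 93.5 TPM, and oligodendrocyte markers (2 or 3 of 4) to between 10.7 and 15.8 TPM. Most of the astrocyte sum was Aldh1l1 (76.1 to 90.8 TPM). The part of other cell types in the values below was not tested, and in bulk RNA fewer cells of a type and less RNA per cell cannot be told apart. With 1 library per group, the spread between cultures is unknown, and no test, error or p-value is given.

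The 10 genes spanned a wide range of levels in the same order in all 4 libraries. Calr, which encodes the glycoprotein chaperone calreticulin (chromosome 8, 84841850 to 84846934, minus strand, GRCm38), was the most abundant, with 732 TPM in control cells, 698 TPM in Tut1 KO cells, 679 TPM in Trp53 KO cells and 646 TPM in double KO cells. Hsp90b1, the ER form of the Hsp90 chaperone (chromosome 10, 86690209 to 86705509, minus strand), had 520, 433, 493 and 494 TPM in the same order of libraries. Its exons overlap those of 2 predicted genes on the same strand, Gm15344 and Gm25745, so its value is uncertain where reads were divided. Together Calr and Hsp90b1 held between 75.7% and 79.7% of the summed TPM of the 10 genes.

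A middle tier held Pdia4, Hspa5 and Sdf2l1. Pdia4, a disulfide isomerase (chromosome 6, 47796141 to 47813430, minus strand), had 152 TPM in control cells, 115 TPM in Tut1 KO cells, 147 TPM in Trp53 KO cells and 139 TPM in double KO cells, and shares an exon with the microRNA gene Mir704. Hspa5 (chromosome 2, 34771970 to 34777547, plus strand) had 143 TPM in control cells, 87.9 TPM in Tut1 KO cells, 118 TPM in Trp53 KO cells and 127 TPM in double KO cells. The library labelled Tut1 KO stood below the other libraries for both genes, further for Hspa5. Sdf2l1, a partner of BiP and its ER J-proteins (chromosome 16, 17130138 to 17132383, minus strand), had 48.2, 40.0, 51.7 and 43.0 TPM in the same order, so that both libraries with a Tut1 label lay below both others.

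The transcription factor Xbp1, the degradation gene Herpud1, the chaperone Dnajb9 and the sensors Atf6 and Ern1 were less abundant. Xbp1 (chromosome 11, 5520659 to 5525893, plus strand) had 21.3 TPM in control cells and 21.4 TPM in Trp53 KO cells, against 15.3 TPM in Tut1 KO cells and 16.4 TPM in double KO cells. Herpud1, which organises the ubiquitin ligase complex of ER-associated degradation (chromosome 8, 94386438 to 94395377, plus strand), had 18.1 and 19.4 TPM in control cells and Trp53 KO cells, and 15.3 and 14.5 TPM in the libraries of the Tut1 KO and double KO. Both genes were thus lower in each library with a Tut1 label than in either library without one. Dnajb9, a J-protein that recruits BiP to IRE1 (chromosome 12, 44205559 to 44210326, minus strand), had 8.90 TPM in control cells, 7.85 TPM in Tut1 KO cells, 10.6 TPM in Trp53 KO cells and 12.1 TPM in double KO cells. Atf6 (chromosome 1, 170704674 to 170867771, minus strand) had 6.36, 5.48, 6.55 and 6.72 TPM, and Ern1 (chromosome 11, 106394650 to 106487852, minus strand) had 1.56, 1.34, 1.73 and 1.61 TPM, in that order of libraries. The mRNA of BiP was thus above those of Atf6 and Ern1 in every library, as it was above that of the PERK gene Eif2ak3 (16.6 to 21.5 TPM).

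**Figure D1:**
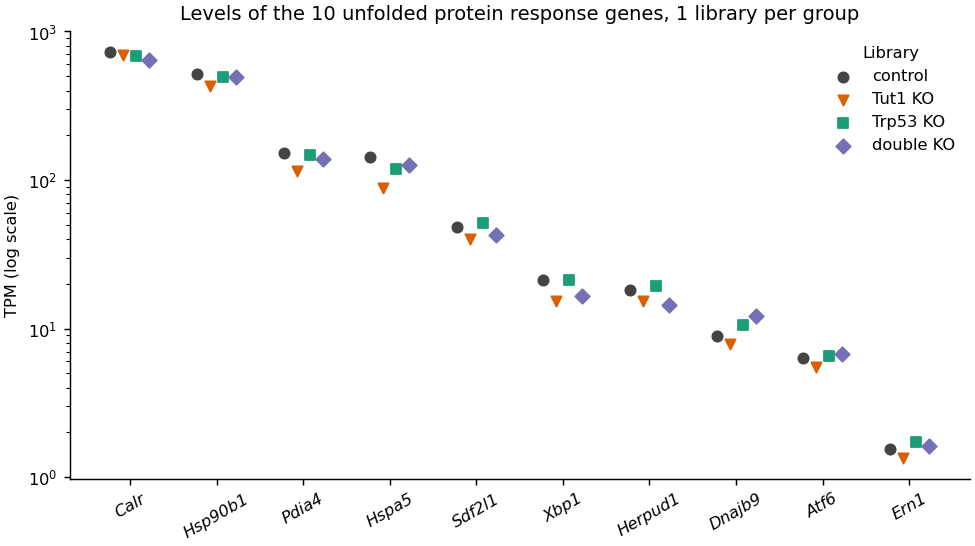
TPM of the 10 genes (log axis) in the libraries of the 4 groups, 1 point per library. The order from Calr to Ern1 is the same in all 4 libraries, and the Tut1 KO point is the lowest of the 4 for 8 of the 10 genes.

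The Tut1 KO library held the lowest value of the 4 for 8 of the 10 genes, the exceptions being Calr and Herpud1, which were lowest in the double KO. Across the 9314 genes with at least 10 TPM in some library, 41.1% had their lowest value in the Tut1 KO. The highest value was in the control for 4 genes, in the Trp53 KO for 4 and in the double KO for 2. The span from the lowest to the highest library was 1.62-fold for Hspa5, 1.53-fold for Dnajb9 and 1.39-fold for Xbp1, and was smallest for Calr at 1.13-fold. Summed over the 10 genes, the level was 1652 TPM in control cells, 1419 TPM in Tut1 KO cells, 1549 TPM in Trp53 KO cells and 1501 TPM in double KO cells. Without Calr and Hsp90b1 the sums were 399, 288, 377 and 361 TPM, so the Tut1 KO was lowest by either sum.

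Promoter sequence was searched for exact matches to elements through which ATF6 and XBP1 act. RefSeq promoters (GRCm38.p6), from 250 bases before to 50 bases after the transcription start, were held for 9 of the 10 genes, Atf6 being the exception. The ER stress response element (ERSE) has the letters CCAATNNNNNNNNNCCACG, in which CCAAT is bound by NF-Y and CCACG by ATF6. An exact ERSE on either strand was present in 39 of 32851 promoters (0.119%) and in those of Hspa5, Calr and Hsp90b1. The shorter ERSE-II, ATTGGNCCACG, was present in 12 promoters (0.0365%), that of Herpud1 among them. The 4 promoters below are shown because they hold these elements. Each run is the 250 bases before the start on the strand of the gene, and the capitals mark each ERSE or, for Herpud1, the ERSE-II.

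Hspa5, chr2:34771840-34772089, plus strand: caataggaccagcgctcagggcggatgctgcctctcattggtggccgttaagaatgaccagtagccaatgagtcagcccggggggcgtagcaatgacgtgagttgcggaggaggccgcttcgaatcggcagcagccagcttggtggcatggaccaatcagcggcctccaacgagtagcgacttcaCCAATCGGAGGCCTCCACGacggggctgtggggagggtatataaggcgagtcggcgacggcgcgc

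Hsp90b1, chr10:86705445-86705694, minus strand: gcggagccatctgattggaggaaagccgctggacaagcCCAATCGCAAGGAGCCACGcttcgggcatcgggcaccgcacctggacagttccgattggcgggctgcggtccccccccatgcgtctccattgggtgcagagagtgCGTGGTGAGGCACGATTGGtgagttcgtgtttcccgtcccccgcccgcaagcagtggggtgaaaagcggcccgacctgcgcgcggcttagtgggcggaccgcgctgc

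Calr, chr8:84846932-84847181, minus strand: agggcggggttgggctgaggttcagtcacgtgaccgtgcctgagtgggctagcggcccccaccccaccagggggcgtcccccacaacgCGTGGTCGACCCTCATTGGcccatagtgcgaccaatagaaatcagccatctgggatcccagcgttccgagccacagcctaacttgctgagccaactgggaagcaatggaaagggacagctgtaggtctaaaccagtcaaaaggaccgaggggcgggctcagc

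Herpud1, chr8:94386179-94386428, plus strand: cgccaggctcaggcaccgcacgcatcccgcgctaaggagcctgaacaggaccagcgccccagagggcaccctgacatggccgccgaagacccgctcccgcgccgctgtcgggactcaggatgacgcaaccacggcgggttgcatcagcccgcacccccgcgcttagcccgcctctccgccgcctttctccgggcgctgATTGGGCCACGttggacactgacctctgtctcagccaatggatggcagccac

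Hspa5 had its ERSE at bases -65 to -47 from the start. Hsp90b1 had 1 at bases -212 to -194 and a second, on the opposite strand, at bases -107 to -89. The ERSE of Calr lay on the opposite strand at bases -162 to -144, and the ERSE-II of Herpud1 at bases -52 to -42. The parts of the element were common: CCACG alone, which lies within both elements, was in 32.8% of all promoters and in 8 of these 9, and CCAAT alone was in 37.4% of all promoters and 7 of these 9. The UPR element bound by XBP1, TGACGTGG, was in 0.676% of all promoters and in none of the 9. The element bound by ATF4 with its partners, TGATGCAA, was in 0.895% of all promoters and, at bases -112 to -105 on the opposite strand, in that of Herpud1. Each share counts both strands, and a match is a match of letters and not a measured binding site. Inexact forms and sequence outside these bases were not searched, so a gene without a match may still carry an element.

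**Figure D2:**
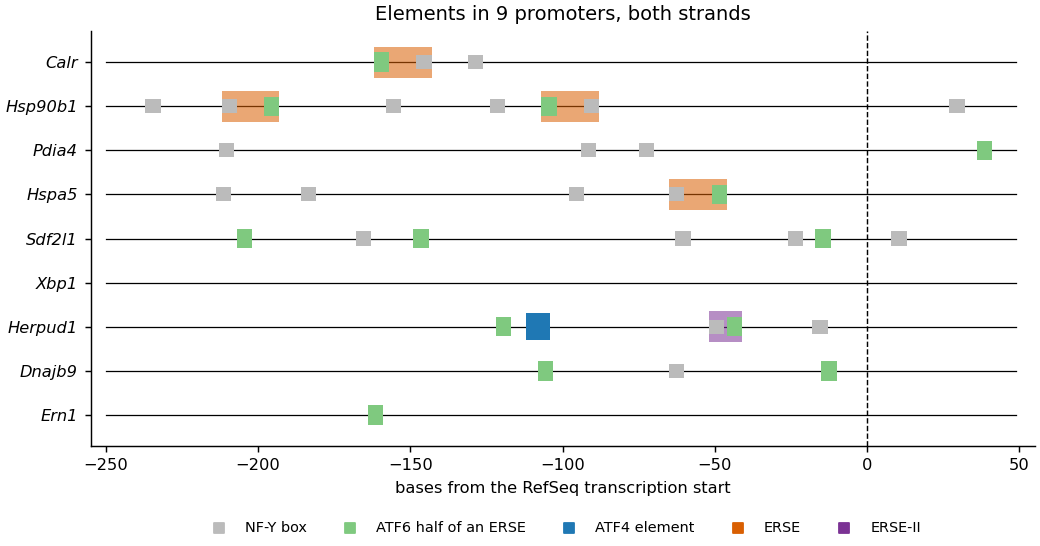
Positions of exact matches in the promoters of 9 genes, from 250 bases before to 50 bases after the RefSeq start (dashed line); block width is to scale on the axis and block height only separates the kinds. ERSE blocks are present in Calr, Hsp90b1 (2 of them) and Hspa5, the ERSE-II in Herpud1, and Xbp1 has no exact match to any of the elements.

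The first comparison, Tut1 KO minus control, asks how these genes stand after Tut1 deletion with Trp53 intact. All 10 were lower in the Tut1 KO, by 0.07 (Calr) to 0.69 (Hspa5) in log2(TPM + 1), a scale that understates the change of genes at low TPM. The difference was -0.69 for Hspa5, -0.45 for Xbp1, -0.40 for Pdia4, -0.27 for Hsp90b1, -0.26 for Sdf2l1, -0.23 for Herpud1, -0.18 for Atf6, -0.16 for Dnajb9 and -0.13 for Ern1. The median over the 10 was -0.25, and over the 7 that had at least 10 TPM in either library it was -0.27, beside -0.09 over all 9032 such genes. In this contrast 60.7% of all genes were below 0.

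None of the 10 reached a 2-fold difference, which 4.1% of all genes did in either direction. Hspa5 passed 1.5-fold and was the only 1 of the 10 to do so, against 12.1% of all genes, but at -0.49 with the GC and length trend removed it did not. A total of 479 of the 9032 genes (5.3%) were as low as Hspa5 or lower. The ERSE did not mark a common size of difference among the genes that carry it, since Hspa5 was at -0.69, Hsp90b1 at -0.27 and Calr at -0.07.

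The difference moved with the GC content of the transcript in this pair of libraries. Over 8469 protein-coding genes its Spearman correlation with GC content was 0.42 and with transcript length -0.36, a description across genes of the same 2 libraries. The 10 genes had a median GC content of 48.8% (40.6% in Dnajb9 to 56.7% in Sdf2l1), beside 49.7% for all protein-coding genes, and a median length of 2430 bases, beside 3307 bases. With a fitted GC and length trend removed, 6 of the 10 remained below 0: Hspa5 at -0.49, Xbp1 at -0.47, Sdf2l1 at -0.44, Pdia4 at -0.31, Herpud1 at -0.27 and Calr at -0.04. Hsp90b1, Dnajb9, Atf6 and Ern1 then stood at 0.01, 0.11, 0.10 and 0.05, and the median over the 10 was -0.15. With the median of all genes set to 0 instead, 9 of the 10 were below 0, with Calr at 0.02.

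**Figure D3:**
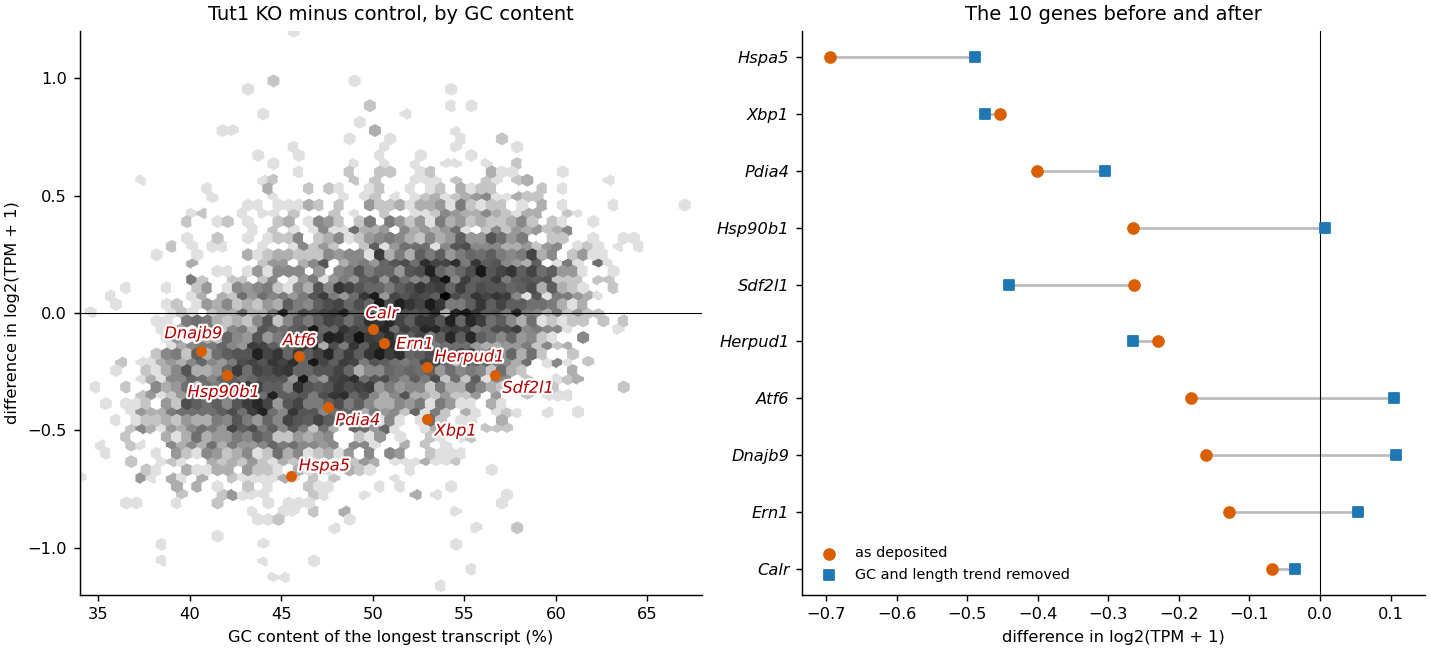
Left, difference between the Tut1 KO and control libraries against transcript GC content for genes with at least 10 TPM in some library (grey, darker for more genes, axes limited to the range shown) and the 10 genes (orange). Right, the 10 differences as deposited and with the GC and length trend removed, where Hspa5, Xbp1, Sdf2l1, Pdia4, Herpud1 and Calr stay below 0 and the other 4 move above it.

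The second comparison, double KO minus Trp53 KO, asks the same where Trp53 was deleted too, and it shares no library with the first. Here 6 of the 10 genes were lower, with a median of -0.07 over all 10 and of -0.08 over the 8 that had at least 10 TPM in either library, beside 0.05 over all 8976 such genes. Below 0 were 41.3% of all genes. Herpud1 (-0.39), Xbp1 (-0.36) and Sdf2l1 (-0.26) were the furthest below 0, followed by Pdia4 (-0.08), Calr (-0.07) and Ern1 (-0.07). Hsp90b1 was at 0.00, Atf6 at 0.03, Hspa5 at 0.10 and Dnajb9 at 0.18. With the GC and length trend removed 8 were below 0, Hsp90b1 (-0.11) and Atf6 (-0.07) among them, and Hspa5 was at 0.02. None passed 2-fold, which 3.21% of all genes did, or 1.5-fold, which 7.89% did.

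As deposited, the pair of Tut1 comparisons divided the genes. Xbp1, Herpud1, Sdf2l1 and Pdia4 were lower in both libraries with a Tut1 label than in both without, an arrangement held by 17.1% of the 9314 genes. For Sdf2l1 the difference was -0.26 in each comparison, and for Xbp1 it was -0.45 and -0.36. Hspa5 was at -0.69 with Trp53 intact and 0.10 without it, and Dnajb9 at -0.16 and 0.18. Of the ERSE carriers Calr was at -0.07 in each, whereas Hsp90b1 was at -0.27 and 0.00. With the GC and length trend removed Hspa5 was at -0.49 and 0.02, Hsp90b1 at 0.01 and -0.11, and Dnajb9 at 0.11 and 0.06. The division was thus not kept for Hsp90b1 and Dnajb9. Xbp1, Herpud1, Sdf2l1 and Pdia4 stayed below 0 in both comparisons. The difference between the 2 comparisons was not tested.

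**Figure D4:**
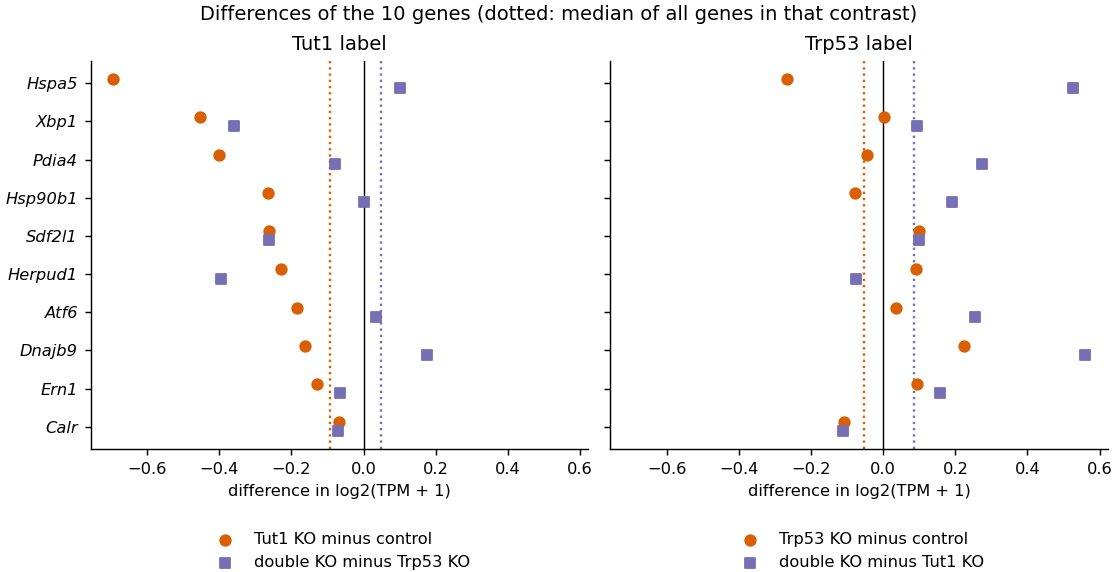
Differences in log2(TPM + 1) of the 10 genes for both Tut1 contrasts (left) and both Trp53 contrasts (right), 1 point per gene and contrast, with the median of all genes dotted. On the left all 10 circles (Tut1 KO minus control) lie below 0, and Herpud1, Xbp1 and Sdf2l1 also have squares (double KO minus Trp53 KO) at -0.26 or lower. On the right Hspa5 and Dnajb9 have the squares furthest above 0, at 0.53 and 0.56.

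For Trp53 deletion with Tut1 intact (Trp53 KO minus control), the 10 genes lay close to 0. The largest differences were those of Hspa5 at -0.27 and Dnajb9 at 0.22, and the other 8 lay between -0.11 (Calr) and 0.10 (Sdf2l1), with Xbp1 at 0.00. Of the 10 genes 4 were lower, where 59.9% of all 9055 genes in the contrast were, and the median was 0.02 over the 10 and -0.02 over the 8 with at least 10 TPM in either library, beside -0.05 for all genes. Hsp90b1 went from -0.08 to 0.03 with the GC and length trend removed, and Pdia4 from -0.05 to 0.01 with the median of all genes set to 0. None passed 2-fold (3.83% of all genes) or 1.5-fold (8.42% of all genes).

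In the double KO minus Tut1 KO comparison, the Trp53 contrast with the Tut1 label in both libraries, 8 of the 10 genes were higher. Dnajb9 was at 0.56, Hspa5 at 0.53, Pdia4 at 0.27, Atf6 at 0.25 and Hsp90b1 at 0.19, and below 0 were Calr (-0.11) and Herpud1 (-0.07). The median was 0.17 over the 10 and 0.15 over the 8 with at least 10 TPM in either library, beside 0.09 over all 8950 such genes, of which 39.7% were below 0. None passed 2-fold (3.9% of all genes) or, on the log2(TPM + 1) scale, 1.5-fold (10.7%). Dnajb9 lay at that threshold, since its TPM ratio was 1.53-fold and its difference with a pseudocount of 0.1 was 0.61, past 1.5-fold. This comparison uses the same Tut1 KO library in which 8 of the 10 genes were lowest, and the values were also related to GC content (Spearman correlation -0.48 over the 8469 protein-coding genes). With the GC and length trend removed Hspa5 was at 0.32 and Dnajb9 at 0.28, whereas Hsp90b1 (-0.09) and Atf6 (-0.01) turned below 0, as Xbp1 (-0.01) did under quantile normalization.

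Dnajb9, Atf6 and Ern1 were higher in both Trp53-deleted libraries than in both others, as were 14.2% of all 9314 genes, and Calr was lower in both, as were 13.4%. For Atf6 and Ern1 the gaps were small, since the nearest libraries on either side had 6.36 and 6.55 TPM for Atf6 and 1.56 and 1.61 TPM for Ern1.

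The double KO and the control, which differ in both deletions and in Cre, did not differ in sex as read from Xist and Ddx3y. Xbp1 was at -0.36, Herpud1 at -0.30 and Dnajb9 at 0.40, and the other 7 lay between -0.18 (Calr) and 0.07 (Atf6), with Hspa5 at -0.17. Of the 10 genes 7 were lower, with a median of -0.14 over the 10. Over the 8 with at least 10 TPM in either library the median was -0.17, beside -0.001 over all 9022 such genes. Of those 9022 genes 50.2% were lower. The signs of all 10 genes were kept under every alternative processing described below. None passed 2-fold (3.31% of all genes) or 1.5-fold (7.76%).

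A wider set of 121 genes of the same system was read beside the 10. It held further chaperones, isomerases, degradation factors, the translocation and glycosylation machinery, the COPII coat of vesicles leaving the ER, further sensors and transcription factors, and the PERK branch. In Tut1 KO minus control 82 of the 121 were lower, beside 60.7% of all genes. The median of the 110 with at least 10 TPM in either library was -0.12, beside -0.09 for all genes. With the GC and length trend removed 63 of the 121 were lower, as with the median of all genes set to 0. In double KO minus Trp53 KO 55 of the 121 were lower, beside 41.3% of all genes. The median of the 114 with at least 10 TPM in either library was 0.04, beside 0.05 for all genes. The count of 55 turned to 69 of the 121 with the GC and length trend removed. With the median of all genes set to 0 it turned to 63. Of 114 wider-list genes with at least 10 TPM in some library, 56 (49.1%) were lowest in the Tut1 KO, beside 41.1% of all genes, and 24 (21.1%) were lower in both libraries with a Tut1 label, beside 17.1%.

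The genes of ER-associated degradation and the disulfide isomerases are the nearest in role to Herpud1 and Pdia4. Of 26 degradation genes 20 were lower in the Tut1 KO (median -0.19) and 8 in double KO minus Trp53 KO (median 0.09). Across all genes 60.7% and 41.3% were below 0 in these contrasts, with medians of -0.09 and 0.05. Edem3, which trims mannose from misfolded glycoproteins, had 17.9 TPM in control cells, 9.62 TPM in Tut1 KO cells, 12.9 TPM in Trp53 KO cells and 9.26 TPM in double KO cells. Of 13 isomerases and oxidases 10 were lower in the Tut1 KO (median -0.24 over all 13) and 11 in the double KO against the Trp53 KO (median -0.15), so most of the group was below 0 in both. After removal of the GC and length trend 9 and 12 of the 13 isomerases and oxidases were lower, with medians of -0.12 and -0.18, and 15 and 11 of the 26 degradation genes, with medians of -0.02 and 0.03. Ero1a, the oxidase that recharges disulfide isomerases, had 102 TPM in control cells, 65.2 TPM in Tut1 KO cells, 184 TPM in Trp53 KO cells and 100.6 TPM in double KO cells. Txndc5, a disulfide isomerase, had 29.1, 30.9, 106 and 37.7 TPM in that order, so the Trp53 KO library stood apart from the other 3 at 1.83 above the control.

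Among 20 other chaperones and co-chaperones 13 were lower in the Tut1 KO (median -0.15 over all 20), near the 60.7% of all genes that were. In double KO minus Trp53 KO 9 of the 20 were lower (median 0.04), beside 41.3% of all genes. Dnajc3, a J-protein of the ER lumen, was the lowest at -0.71, with 20.6 TPM in control cells, 12.1 TPM in Tut1 KO cells, 17.3 TPM in Trp53 KO cells and 18.2 TPM in double KO cells. After removal of the GC and length trend 12 of the 20 were lower in the Tut1 KO, with a median of -0.08, and in double KO minus Trp53 KO the count turned to 13 of 20 lower, with a median of -0.03. Hyou1, an ER nucleotide exchange factor for BiP, had 35.5, 27.6, 58.5 and 36.0 TPM, and its highest library was the Trp53 KO.

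Genes of entry into and exit from the ER are those of translocation and glycosylation and those of the COPII coat. Of 29 translocation and glycosylation genes 21 were lower in the Tut1 KO (median -0.08). In the double KO against the Trp53 KO 14 were lower (median 0.02). Across all genes 60.7% and 41.3% were below 0 in these contrasts, with medians of -0.09 and 0.05. The first median of the group turned to 0.03 and the second to -0.02 when the GC and length trend was removed. Srp14, a protein of the signal recognition particle, had 199.6 TPM in control cells, 117 TPM in Tut1 KO cells, 178 TPM in Trp53 KO cells and 187 TPM in double KO cells. Srp72 of the same particle had 73.5, 59.0, 67.9 and 27.1 TPM and differed by -1.29 between the double KO and Trp53 KO. Of 11 COPII genes 9 were lower in the Tut1 KO (median -0.19 over all 11, -0.05 without the GC and length trend), and 3 in the double KO against the Trp53 KO (median 0.22, 0.16 without the trend). Sar1a, the GTPase that starts the coat, had 27.3, 21.7, 116 and 24.2 TPM, with the Trp53 KO again apart. Sec16a, a scaffold of ER exit sites, had 19.9, 18.6, 9.02 and 15.6 TPM and was lower by 1.06 in the Trp53 KO than in the control.

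The PERK branch stood on the other side of 0 from the 10 genes in the first Tut1 contrast but not in the second. Most PERK branch genes were higher in each Cre-treated library than in the control. Of the 10 PERK branch genes 9 were higher in the Tut1 KO than in the control (median 0.21), where 60.7% of all genes were below 0. Atf4, counted as higher, was at 0.00. Of the 6 with at least 10 TPM in either library 5 were higher, with a median of 0.17. After removal of the GC and length trend 7 of 10 were higher, with a median of 0.16. Against the control 9 were also higher in the Trp53 KO (median 0.48) and in the double KO (median 0.34). In those contrasts 59.9% and 50.2% of all genes were below 0. In double KO minus Trp53 KO 8 of the 10 PERK branch genes were lower (median -0.12), beside 41.3% of all genes. Nupr1, a stress-induced chromatin protein, had 2.23 TPM in control cells, 4.55 TPM in Tut1 KO cells, 11.2 TPM in Trp53 KO cells and 10.9 TPM in double KO cells, the last 1.89 above the control. Sesn2, which responds to p53 as well as to ATF4, had 59.1 TPM in control cells and 71.1 TPM in Tut1 KO cells, against 33.0 and 30.7 TPM in the libraries of the Trp53 KO and double KO. Atf4 itself had 131, 131, 133 and 230 TPM, so only the double KO stood apart at the level of its mRNA, while ATF4 is largely controlled at translation. Asns, its asparagine synthetase target, was lower in the Tut1 KO, with 141, 115, 197 and 179 TPM in the 4 libraries.

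Of the 12 further sensors and transcription factors 8 were lower in the Tut1 KO (median -0.12), beside 60.7% of all genes. In the double KO against the Trp53 KO 2 were lower (median 0.08), beside 41.3% of all genes. Without the GC and length trend the first median was 0.05. Eif2ak3, which encodes PERK, was the lowest of those at 10 TPM or more in the first contrast at -0.35, with 21.5, 16.6, 18.4 and 21.0 TPM. Traf2, an adaptor that binds activated IRE1, had 9.73, 9.65, 12.3 and 15.3 TPM, so like Dnajb9 it was highest in the double KO.

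**Figure D5:**
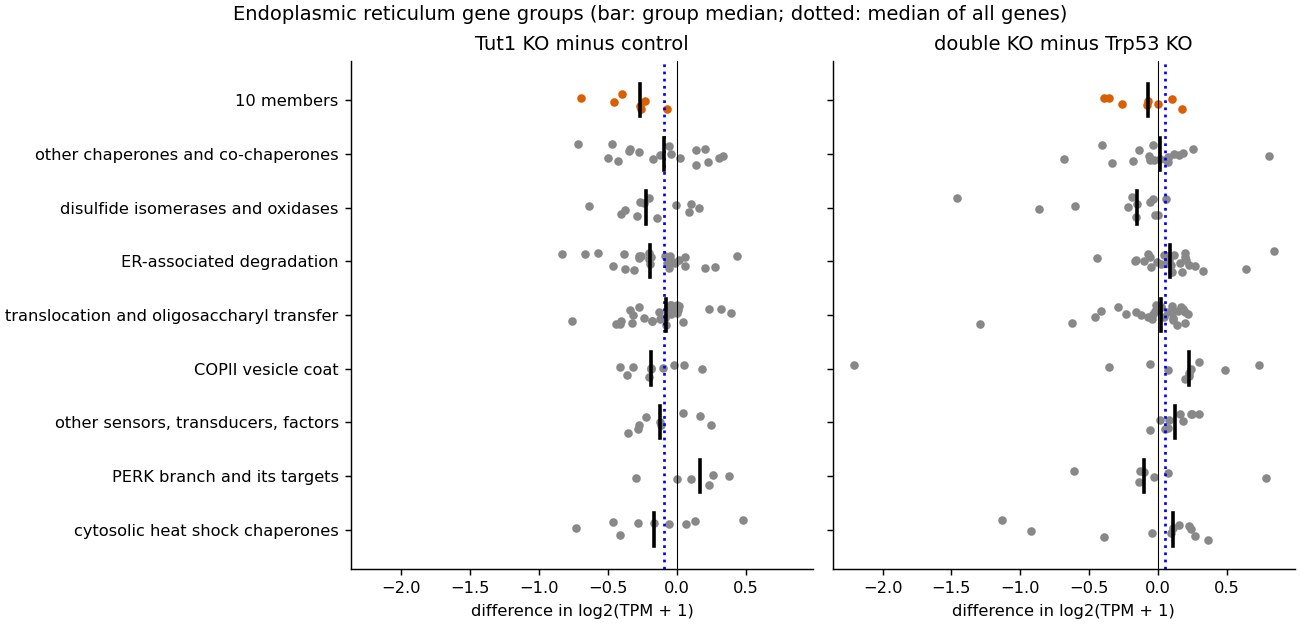
Differences in log2(TPM + 1) of the 10 genes (orange) and of 7 groups of the wider set and the cytosolic heat shock chaperones (grey) in Tut1 KO minus control (left) and double KO minus Trp53 KO (right), 1 point per gene with at least 10 TPM in either library. Black bars are group medians and dotted lines the medians of all genes (-0.09 and 0.05). Those of the 10 genes that are plotted, 7 on the left and 8 on the right, have the lowest bar on the left (-0.27), and the PERK branch is the only group with its bar above 0 there.

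Hspa5 was also compared with all other genes by the shape of its profile. Of 8409 genes, those with the smallest root-mean-square distance to Hspa5 in log2(TPM + 1), each centred on its mean over the 4 libraries, were Ibtk (0.010), Dnajc3 (0.017), Kpna4 (0.018), Xrcc2 (0.020) and Fam122b (0.021). Dnajc3, second of the 8409, was the only 1 of these 5 in the wider lists, and its promoter held an exact ERSE or ERSE-II. The likeness rests on 4 values.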

How the data were processed

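RNA of 4 neural stem cell cultures was measured, 1 library per group. The deposited TPM values were computed by the authors for whole genes. The submitters' processing notes name Trimmomatic, HISAT2, StringTie and mm10 without roles. The labels name a stranded short-read mRNA kit and the series text long reads, so the platform is not settled. TPM keeps no depth, so depth per library is unknown and no counting interval is given; sums were just under 1000000.

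Differences were taken in log2(TPM + 1), among genes that reached a TPM of 10 in either library, and called at a difference of 1 (2-fold), with 1.5-fold as a second threshold. With 1 library per group no test was run. Members, lists and the naming rule were chosen with earlier results of these data known. Named were the 10 genes, Tut1 and Trp53, listed genes past 2-fold, otherwise the largest rise or fall of a list, and the 5 profiles nearest Hspa5. Canx, Creld2, Dnajb11, Pdia6, Syvn1, Xist and Ddx3y were picked after their values were seen. Of the 122 listed genes, 121 were found; of 2 IDs of Ddit3 the more abundant was used.

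Coordinates, GC content and length came from GENCODE M21 (GRCm38), with 55141 of 55487 IDs matched, and promoters from RefSeq GRCm38.p6. The GC and length trend was a fit to each library's deviation from the 4-library mean. Code was tested on simulated data and run in Python 3.11.15 with pandas 2.3.3 and numpy 2.4.6 for tables, scipy 1.17.1 for correlations, matplotlib 3.10.9 for figures.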

Additional observations from a re-analysis of the deposited data

Results flagged for a closer look

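As deposited, Hspa5 and Dnajb9 had Tut1 contrasts of opposite sign with and without Trp53, each beyond 0.1 on the log2 scale. For Hspa5 the contrast was -0.69 with Trp53 intact and 0.10 without, a difference of -0.79. For Dnajb9 it was -0.16 and 0.18, a difference of -0.34. Each contrast is 1 library against 1 other, so the difference was not tested. Sex, as read from Xist and Ddx3y, changes in opposite directions in these contrasts and cannot be told apart from the difference. With the GC and length trend removed the difference was -0.51 for Hspa5 and 0.05 for Dnajb9. Hspa5 was then at -0.49 and 0.02, and Dnajb9 at 0.11 and 0.06, both above 0. With the median of all genes set to 0, Hspa5 without Trp53 was at 0.05 and Dnajb9 with Trp53 at -0.07. Under quantile normalization these were 0.07 and -0.01. The flag was thus met by neither gene under these scalings.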

How the results depend on the processing

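No replicate could be left out and no paired analysis was possible because each group has 1 library. Values were compared under 10 alternatives, and a value was taken as unmoved within 0.1 on the log2 scale. The median of the wider lists in Tut1 KO minus control, -0.12, became -0.0191 under quantile normalization and -0.0182 with GC content and length corrected. At the 1.5-fold threshold 1 of the 10 genes (Hspa5) was called in that contrast, beside 0 at 2-fold; the call at 1.5-fold is lost with GC content and length corrected. The medians of the 10 genes, over those at 10 TPM or more in either library, moved by no more than 0.1 under every alternative that has one. The share of all genes below 0 in Tut1 KO minus control was 60.7% as deposited, 50% with the median set to 0, 49.4% under quantile normalization and 50.4% after the GC and length correction, while 10, 9, 10 and 6 of the 10 genes were below 0. Calls over all genes in that contrast were 134 higher and 236 lower as deposited, and 180 higher and 189 lower under quantile normalization. Among the alternatives Hspa5 in that contrast ranged from -0.70 to -0.49, Xbp1 from -0.48 to -0.32, Pdia4 from -0.40 to -0.31, Sdf2l1 from -0.44 to -0.16. The causes of these shifts were not tested. Depth is unknown, so the precision of Ern1, Atf6 and Dnajb9, near or under 10 TPM, cannot be given.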

Other observations

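Genes outside the 10 whose promoters hold an exact ERSE or ERSE-II were looked at after the data were seen. Of 49 gene symbols with either element, 46 were in the expression table, 22 had at least 10 TPM in some library and 18 of these were not among the 10. In Tut1 KO minus control 12 of the 18 were lower, with a median of -0.06, beside 60.7% and -0.09 for all genes. In double KO minus Trp53 KO 7 were lower, with a median of 0.09, beside 41.3% and 0.05 for all genes. The 18 include the ER genes Canx, Creld2, Dnajb11, Dnajc3, Pdia6 and Syvn1. Canx, the membrane-bound partner of calreticulin, had 302 TPM in control cells, 225 TPM in Tut1 KO cells, 265 TPM in Trp53 KO cells and 294 TPM in double KO cells. Creld2, a secreted ER stress gene, had 56.3, 54.6, 54.6 and 57.2 TPM, within a narrower span than Canx.

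The cytosolic heat shock chaperones, which answer to misfolding outside the ER, numbered 12. Of the 9 with at least 10 TPM in either library, 6 were lower in Tut1 KO minus control, with a median of -0.17, beside 60.7% and -0.09 for all genes. In double KO minus Trp53 KO 4 of 11 were lower, with a median of 0.11, beside 41.3% and 0.05 for all genes. Hspa1a had 4.36 TPM in control cells, 4.77 TPM in Tut1 KO cells, 11.5 TPM in Trp53 KO cells and 5.57 TPM in double KO cells. Hspa1b had 4.86, 4.57, 13.1 and 5.44 TPM. These near-identical copies share reads, so their separate values are uncertain, and the Trp53 KO was the highest library for both.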
